A study of Mus musculus with 6 samples.

Results

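Lymphatic endothelial cells line the vessels that drain fluid, lipid and immune cells from fat and carry them to lymph nodes. A set of 8 genes used to recognise these cells were followed: Prox1, Sox18, Flt4, Lyve1, Pdpn, Itga9, Reln and Mmrn1. They were taken by symbol from the deposited count table, which listed 57180 genes, and all 8 were found and had enough counts to be tested. The tissue was inguinal white fat, a depot under the skin that holds a lymph node; the labels do not say whether the node was removed. In the first group, 3 libraries (ADISSP 1, 2 and 3) came from wild-type mice on a high-fat diet that received recombinant Adissp, a protein secreted by fat cells, each day for 33 days at 68 nmol/kg. The other 3 libraries (Control 1, 2 and 3) came from wild-type mice on the same diet. The labels give neither the strain, sex or age of the mice nor what the controls were injected with. The comparison asks how the treatment altered the RNA of this depot.

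Lymphatic identity is set by transcription factors: in the mouse embryo Sox18 and Nr2f2 switch on Prox1 in a subset of vein cells, and Prox1 then keeps the lymphatic programme on. Growth of the vessels depends on Vegfc acting through the receptor that Flt4 encodes (VEGFR-3), and the other members are surface and matrix proteins of the vessel wall. None of the 8 is made by lymphatic cells alone. Sox18 is also made by blood endothelium, Lyve1 by some tissue macrophages, Pdpn by fibroblastic stromal cells of lymph nodes and fat, and Prox1 by some muscle fibres.

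The starts of the genes for which a sequence was at hand are shown so that the members' start regions can be compared. RefSeq (GRCm38.p6) windows of 250 bases before an annotated start were found for 6 of the 8 members, 7 windows in all. The GENCODE M21 gene models of that build place the Flt4 window wholly inside an exon, and the Itga9 window inside the gene, so neither is printed. Prox1 had a further window, at chr1:190169516-190169765, which held 118 bases of exon and is not printed. Windows of 4 members are printed, 5′ to 3′ on the gene's strand. They are Prox1 at chr1:190170828-190171077 (minus strand), Reln at chr5:22344706-22344955 (minus), Pdpn at chr4:143299565-143299814 (minus) and Mmrn1 at chr6:60944067-60944316 (plus). None of the 4 overlaps an exon, but the Mmrn1 window lies in an intron of 1 of that gene's 3 transcripts. Capitals mark AACAAT, a form of the site that SOX factors bind, and AGGTCA, a hexamer bound by nuclear receptors such as Nr2f2. Other forms of these sites were neither marked nor counted.
Prox1: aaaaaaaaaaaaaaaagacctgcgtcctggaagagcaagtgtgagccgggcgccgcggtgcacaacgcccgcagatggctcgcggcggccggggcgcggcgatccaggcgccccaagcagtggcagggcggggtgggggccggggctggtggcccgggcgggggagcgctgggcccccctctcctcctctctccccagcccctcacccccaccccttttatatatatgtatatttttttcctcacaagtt
Reln: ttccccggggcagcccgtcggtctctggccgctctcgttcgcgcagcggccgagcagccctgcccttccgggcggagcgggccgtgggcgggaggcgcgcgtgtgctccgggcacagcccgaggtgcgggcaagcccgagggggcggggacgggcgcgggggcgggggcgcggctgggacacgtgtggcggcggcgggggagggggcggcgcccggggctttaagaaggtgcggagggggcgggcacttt
Pdpn: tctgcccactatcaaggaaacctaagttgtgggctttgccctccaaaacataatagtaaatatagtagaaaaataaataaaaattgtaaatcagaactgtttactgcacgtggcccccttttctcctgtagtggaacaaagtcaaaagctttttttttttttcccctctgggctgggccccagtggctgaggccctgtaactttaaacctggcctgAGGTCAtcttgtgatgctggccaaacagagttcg
Mmrn1: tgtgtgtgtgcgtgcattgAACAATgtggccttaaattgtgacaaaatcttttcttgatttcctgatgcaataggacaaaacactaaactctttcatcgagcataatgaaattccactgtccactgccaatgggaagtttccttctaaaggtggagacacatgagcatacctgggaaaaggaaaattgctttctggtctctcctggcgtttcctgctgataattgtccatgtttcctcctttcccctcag
The printed Prox1 and Reln windows were 64.8% and 80.0% G and C and held 20 and 37 CpG dinucleotides. Those of Pdpn and Mmrn1 were 43.2% and 42.4% G and C, with 2 and 3 CpG, against medians of 52.4% and 6 over the 32851 windows of the table. Motifs were counted on either strand in all 7 windows of the members, printed or not. AACAAT occurred 1 time in Mmrn1 and in no other member's window, and in 9.42% of all windows. AGGTCA occurred 1 time in Pdpn and in no other member's window, and in 14.0% of all windows. AGGAAG, a form of the site bound by ETS factors of endothelium, was in none of the members' windows and in 29.5% of all. Other forms of the ETS site were not counted, so its absence is not shown. The matches did not overlap, and these counts describe letters in short windows only.

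Before the results, 1 library needs mention. Total counts ran from 10357930 to 15658428 per library, and the mitochondrial share was 3.13% to 4.20% in Control and 8.43% to 11.1% in ADISSP. Control 3 stood apart from the other controls. The summed level of 8 B cell markers was 482 and 574 CPM (counts per 1e6 counts, after scaling) in Control 1 and 2, 110 in Control 3 and 4.98 to 9.27 in ADISSP. That of 8 skeletal muscle genes was 32.6 and 40.5 CPM in Control 1 and 2, 8564 in Control 3 and 3050 to 3487 in ADISSP. For this reason the change of each of the 8 genes is also given without Control 3 and against Control 3 alone. For other named genes such values are given in part, and where none is given the call may still change. Against Control 3 alone, spread is estimated from the ADISSP libraries only and differences between control mice do not enter.

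Lymphatic genes were lower in fat of Adissp-treated mice. In edgeR (quasi-likelihood test, Benjamini-Hochberg adjusted over the 17320 tested genes), 6 of the 8 fell at an adjusted p under 0.05 and 0 rose: Prox1, Lyve1, Itga9, Pdpn, Reln and Flt4. Mmrn1 and Sox18 did not pass. Of all tested genes, 16.5% were lower and 18.5% higher by the same rule. The members' median log2 fold change (ADISSP over Control) was -1.19, and that of all tested genes was -0.01. In 7 of the 8, every ADISSP library lay below every Control library, which held for 23.7% of tested genes. Without Control 3 all 8 were lower past the threshold (22.8% of tested genes), and against Control 3 alone 4 were (7.70%). In bulk tissue, fewer lymphatic cells and less of these RNAs per cell cannot be told apart.

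**Figure D1:**
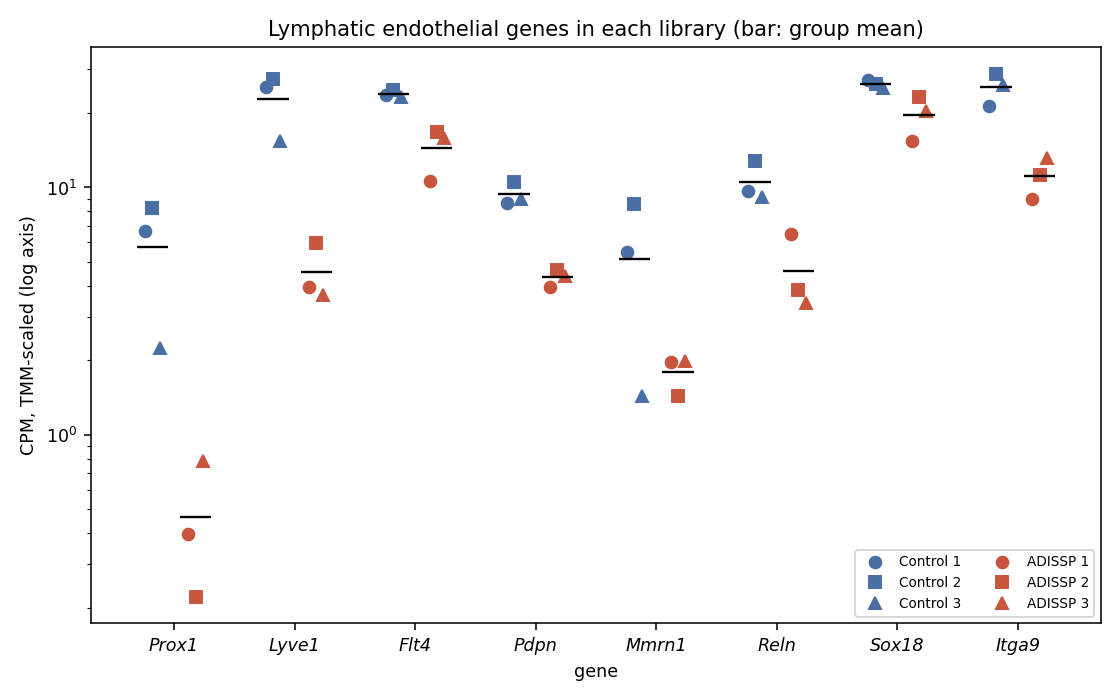
Level of each lymphatic gene in every library, in CPM on a log axis. Blue points are Control libraries, red points are ADISSP libraries (circle, square and triangle for replicates 1, 2 and 3) and black bars are group means (n = 3). All ADISSP points lie below all Control points except for Mmrn1, where Control 3 is the lowest of the 6 libraries.

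Among the transcription factors, Prox1 showed the largest change of the 8 genes and Sox18 the smallest. Prox1 (ENSMUSG00000010175, GRCm39 chromosome 1, 189850232 to 189902911, minus strand), the factor that sets lymphatic fate, had 118, 151 and 33 counts across Control 1, 2 and 3, against 5, 2 and 11 across ADISSP 1, 2 and 3. These were 6.68, 8.29 and 2.25 CPM and 0.396, 0.221 and 0.781 CPM. Control 3 lay between its fellow controls and the ADISSP libraries, and the groups did not overlap. Its log2 fold change was -3.53 (SE 0.60, 95% interval -4.93 to -2.14, edgeR adjusted p = 0.00342), so that 8.63% of the Control level was left. It was -3.90 without Control 3 and -2.18 against Control 3 alone (edgeR adjusted p = 0.0389). With 2 counts, the Prox1 level of ADISSP 2 was under the floor of 3 counts, which is 0.331 CPM in that library.

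Sox18 (ENSMUSG00000046470, chromosome 2, 181311629 to 181313433, minus strand) acts above Prox1 and is shared with blood vessels. It stood at 27.3, 26.3 and 25.3 CPM in the Control libraries and at 15.4, 23.3 and 20.4 CPM in the ADISSP libraries. The controls were close together and ADISSP 2 came within 1.09-fold of the lowest of them. With a log2 fold change of -0.42 (SE 0.16, 95% interval -0.78 to -0.07), Sox18 did not pass (edgeR adjusted p = 0.0654). It passed without Control 3 (-0.46, edgeR adjusted p = 0.0325) and without ADISSP 2 (-0.56, edgeR adjusted p = 0.0437), and did not against Control 3 alone (-0.38, edgeR adjusted p = 0.275).

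The growth factor receptor Flt4 fell by less than Prox1. Flt4 (ENSMUSG00000020357, chromosome 11, 49500090 to 49543566, plus strand) stood at 23.7, 24.8 and 23.3 CPM in Control and at 10.6, 16.8 and 15.8 CPM in ADISSP. All 3 controls, Control 3 included, were within a narrow range, and ADISSP 1 was the lowest library. Flt4 had a log2 fold change of -0.74 (SE 0.17, 95% interval -1.13 to -0.34, edgeR adjusted p = 0.0115), and it passed with any 1 library left out. It was -0.77 without Control 3 (edgeR adjusted p = 0.00403). Against Control 3 alone the size was similar at -0.71 but it did not pass (edgeR adjusted p = 0.0628). Set against Prox1 in the same library, there were 3.55, 2.99 and 10.3 Flt4 counts per Prox1 count in Control and 26.8, 76 and 20.3 in ADISSP, so that the pair did not keep a fixed ratio.

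Among the surface proteins, Lyve1 fell the most. Lyve1 (ENSMUSG00000030787, chromosome 7, 110449814 to 110462446, minus strand) encodes a hyaluronan receptor through which immune cells enter lymphatic vessels. It stood at 25.5, 27.4 and 15.4 CPM in Control and at 3.96, 5.96 and 3.69 CPM in ADISSP. Control 3 was the lowest control, yet 2.59-fold above the highest ADISSP library. Lyve1 changed by -2.35 on the log2 scale (SE 0.27, 95% interval -2.97 to -1.72, edgeR adjusted p = 4.5e-04), with -2.59 without Control 3 and -1.80 against Control 3 alone (edgeR adjusted p = 8.0e-04). Of 10 tissue macrophage markers 8 fell and 0 rose, with a median log2 fold change of -1.14. The number was 5 without ADISSP 3 and 4 against Control 3 alone. Their summed level was 614 to 736 CPM in Control and 259 to 365 CPM in ADISSP, and none was at 0 in a whole group. The colony-stimulating factor receptor Csf1r fell by 1.27 and Adgre1 (F4/80) by 0.97 on the log2 scale. The part of macrophages in the Lyve1 result was not tested. Per count of the macrophage gene Mrc1 there were 0.140, 0.190 and 0.113 Lyve1 counts in Control and 0.0543, 0.101 and 0.0871 in ADISSP, lower in each ADISSP library than in each Control library. Such a ratio depends on the marker chosen. Among the 10 markers only Timd4 fell by more than Lyve1. Timd4 had 398, 546 and 90 counts in Control and 11, 5 and 4 in ADISSP. Per count of Timd4, Lyve1 was higher in each ADISSP library than in each Control library, on these few ADISSP counts.

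Pdpn (ENSMUSG00000028583, chromosome 4, 142994001 to 143026134, minus strand) encodes podoplanin, which binds Clec1b on platelets and keeps blood out of the lymph. Its levels were 8.66, 10.5 and 9.0 CPM in Control and 3.96, 4.63 and 4.40 CPM in ADISSP, with little spread inside either group and a clear gap between them. Pdpn changed by -1.12 on the log2 scale (SE 0.18, 95% interval -1.53 to -0.70, edgeR adjusted p = 0.00214) by -1.16 without Control 3 (edgeR adjusted p = 6.2e-04) and by -1.07 against Control 3 alone (edgeR adjusted p = 0.0215). Fibroblast and adipocyte progenitor markers moved in the same direction: 6 of 9 fell and 0 rose, with a median of -1.14 and a summed level of 3320 to 3781 CPM in Control and 1591 to 2056 CPM in ADISSP. Lum fell by 2.06 and Col3a1 by 1.14 on the log2 scale. Per count of Pdgfra, a gene of these progenitors, Pdpn had 0.0869, 0.101 and 0.0976 counts in Control and 0.108, 0.0855 and 0.110 in ADISSP, ranges that overlap. Such a ratio depends on the marker chosen: Pdgfra fell by 1.18 on the log2 scale, close to Pdpn. Lum fell by more than Pdpn, and Col1a1 by less (0.53). Of the mesothelial markers, another possible source of Pdpn, Upk3b was at 0 in all 6 libraries and the list summed to 1.65 to 3.62 CPM. The part of progenitors in the Pdpn result was not tested.

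Itga9 (ENSMUSG00000039115, chromosome 9, 118435758 to 118730071, plus strand) encodes the integrin chain needed for lymphatic valves. It stood at 21.4, 28.9 and 26.0 CPM in Control and at 8.94, 11.3 and 13.2 CPM in ADISSP, and the lowest control was 1.62-fold above the highest ADISSP library. The log2 fold change was -1.19 (SE 0.18, 95% interval -1.59 to -0.79, edgeR adjusted p = 0.00132), with -1.19 without Control 3 and -1.23 against Control 3 alone (edgeR adjusted p = 3.2e-04 and 0.00209). The non-coding gene Gm2415 overlaps Itga9 on the opposite strand with 424 counts over Control and 619 over ADISSP, so reads of the pair may be mixed unless counting used strand. Mural cells of blood vessels, which can also make Itga9, had 1 of 7 markers lower (Pdgfrb, -0.44) and 0 higher, with summed levels of 795 to 987 CPM in Control and 758 to 914 CPM in ADISSP.

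Of the secreted proteins Reln passed the test and Mmrn1 did not. Reln (ENSMUSG00000042453, chromosome 5, 22089452 to 22549700, minus strand) encodes reelin, best known from the brain and released by lymphatic endothelium to vessel muscle. It stood at 9.67, 12.8 and 9.14 CPM in Control and at 6.49, 3.86 and 3.41 CPM in ADISSP, with ADISSP 1 nearest the controls. The log2 fold change was -1.20 (SE 0.27, 95% interval -1.81 to -0.59, edgeR adjusted p = 0.00948), and it was -1.30 without Control 3 (edgeR adjusted p = 0.00213). Against Control 3 alone Reln was at -1.0 and did not pass (edgeR adjusted p = 0.0710).

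Mmrn1 (ENSMUSG00000054641, chromosome 6, 60901960 to 60966362, plus strand) encodes multimerin 1, a matrix protein of lymphatic endothelium and platelets. It had 97, 156 and 21 counts in the controls, against 25, 13 and 28 in the treated libraries, equal to 5.49, 8.57 and 1.43 CPM and 1.98, 1.43 and 1.99 CPM. Control 3 was level with ADISSP 2, the lowest treated library, so that the groups overlapped. The log2 fold change of -1.51 (SE 0.59, 95% interval -2.90 to -0.13) did not pass (edgeR adjusted p = 0.0855). This call rested on Control 3: the value was -1.95 without it (edgeR adjusted p = 2.0e-04) and 0.33 against it alone (edgeR adjusted p = 0.736).

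**Figure D2:**
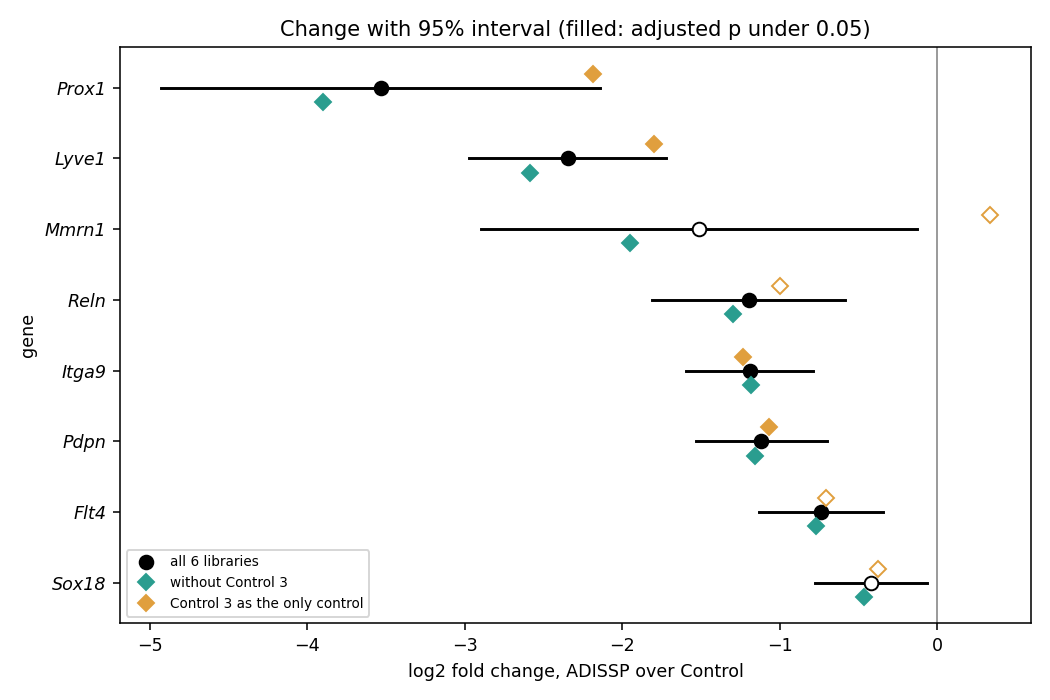
log2 fold change of each gene, ADISSP over Control. Black circles use all 6 libraries with the 95% interval as a line, green diamonds leave out Control 3 and orange diamonds use Control 3 as the only control, and filled symbols have an adjusted p under 0.05. Values run from -3.53 for Prox1 to -0.42 for Sox18, and only Mmrn1 crosses 0, at 0.33 against Control 3 alone.

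The members thus differed in how Control 3 stood. Prox1 and Mmrn1 were in Control 3 at under 0.5 times their level in each of the other controls, as were 5.35% of tested genes. Lyve1 in Control 3 was at 0.604 and 0.562 times Control 1 and 2. For Flt4, Pdpn, Reln, Sox18 and Itga9 these ratios lay between 0.714 and 1.21. The B cell, T cell and lymph node lists had their lowest control value in Control 3 as well: T cell markers summed to 208 and 293 CPM in Control 1 and 2, 67.2 in Control 3 and 18.5 to 28.9 in ADISSP. Markers of lymph node stroma and high endothelium summed to 113 and 114 CPM in Control 1 and 2, 23.3 in Control 3 and 2.76 to 4.05 in ADISSP, with Glycam1, Chst4 and Madcam1 at 0 in every ADISSP library. Lymphatic vessels run through the lymph node as well as the fat around it. In these lists 8 of 8 B cell, 7 of 8 T cell and 5 of 6 tested lymph node genes fell and 0 rose, with Cr2 in the first and the last list. Of the T cell genes 3 were lower when any 1 ADISSP library was left out and 4 without Control 1, and of the lymph node genes 3 were lower without ADISSP 1. By name, the log2 fold change was -4.81 for Blk, -6.56 for Ms4a1, -3.10 for Il7r, -3.54 for Cd4 and -5.64 for the stromal chemokine Ccl19. How much of the lymphatic change came with the lymph node's share of the sample was not tested.

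**Figure D3:**
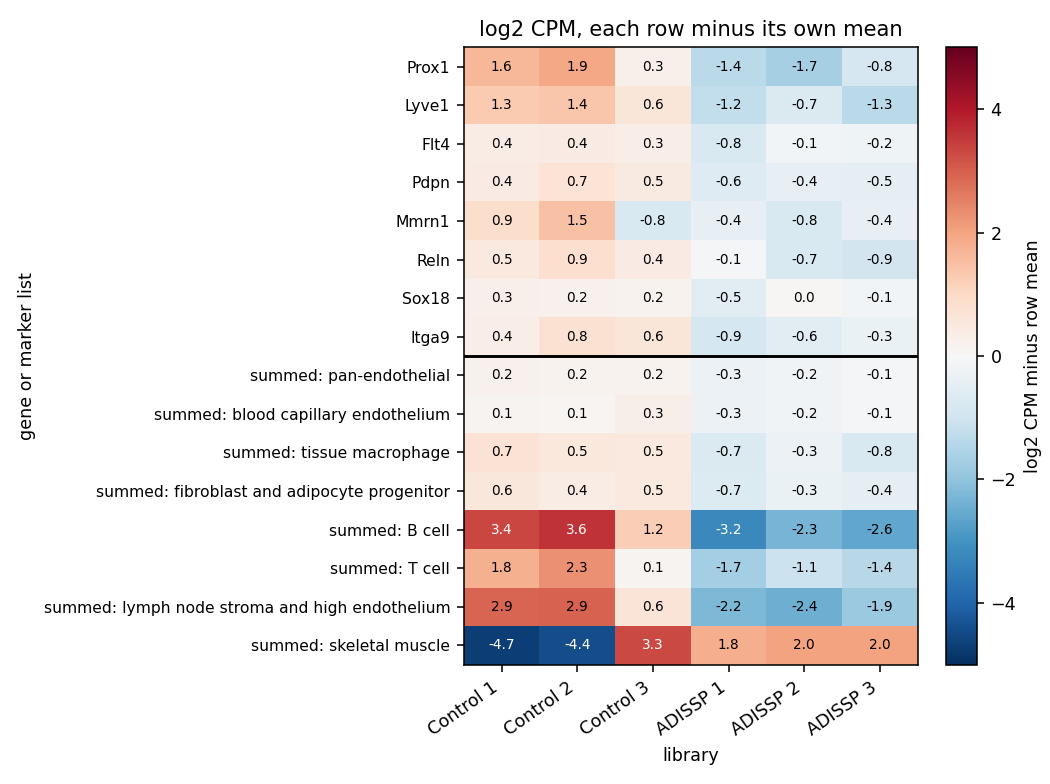
Level of each lymphatic gene (log2 of CPM + 0.5) and of the summed markers of other cell types (log2 of summed CPM) in the 6 libraries, each row minus its own mean over the libraries. Red is above and blue below the row's mean. Control 3 is nearer to ADISSP than to Control 1 and 2 for Mmrn1, between them for Prox1, B cell, T cell and lymph node rows, and with Control 1 and 2 for Flt4, Pdpn, Sox18 and Itga9.

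The lists of other cell types gave the following counts, beside 18.5% of all tested genes higher and 16.5% lower with all 6 libraries. All 6 brown fat genes rose, among them Ppargc1a by 3.09 and Elovl3 by 4.0 on the log2 scale, and the list summed to 110 to 184 CPM in Control and 3927 to 4643 CPM in ADISSP. Of 6 fat cell genes 2 rose, Lipe by 0.87 and Fabp4 by 0.49, the latter past the threshold in 1 of 6 fits with a library left out. Of 8 muscle genes 2 rose and 0 fell, but 8 were higher without Control 3, as were 4130 of the 17320 tested genes. Against Control 3 alone the list's median log2 fold change was -1.34. The list summed to 8564 CPM in Control 3 and to 3050 to 3487 CPM in ADISSP. Myh1 and Myh2, named for their small p, did not share that direction. Myh1 was at 3.22, 3.46 and 11.5 CPM in Control and 237, 101 and 176 CPM in ADISSP. Myh2 was at 1.07, 0.879 and 1.43 CPM in Control and 95.2, 16.5 and 61.8 CPM in ADISSP. The mesothelial list had 1 of 3 tested genes higher (Lrrn4, 1.70) and 1 lower (Gpm6a, -3.41), and the Lrrn4 call was lost without ADISSP 1, ADISSP 3 or Control 1 (edgeR adjusted p = 0.130, 0.0578 and 0.117) and against Control 3 alone (edgeR adjusted p = 0.0828). Of 6 Schwann cell genes 1 rose (S100b, 3.36) and 0 fell. Their part in the lymphatic result was not tested.

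Patterns over the 6 libraries were compared by the root mean square difference of log2(CPM + 0.5), each gene centred on its own mean, among 13478 genes with a mean of at least 1 CPM. Genes with a predicted-gene symbol (Gm followed by digits, or ending in Rik) were left out. The genes most like Prox1 were Bend5 (0.157), Tmem163 (0.193), Creg2 (0.198), Klhl6 (0.222) and Hvcn1 (0.222). Those most like Lyve1 were Blnk (0.105), Cd33 (0.138), Bend4 (0.149), Nxpe2 (0.175) and Plxnc1 (0.191). Those most like Mmrn1 were Bcl2a1d (0.176), Itgae (0.213), Itgal (0.213), Hs3st3b1 (0.217) and Ctla4 (0.240). No member was among these: the nearest member to Prox1 was Lyve1 at 0.531, and the nearest to Mmrn1 was Reln at 0.611. Pdpn and Itga9 were closest to each other among the members, at 0.151, and Flt4 and Sox18 at 0.166. The 6 points share the difference between the groups, so these values describe likeness only.

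Levels per transcript length, from the deposited TPM values (transcript abundance corrected for length, mean ± SD, n = 3), were compared between members within each group. In Control, Sox18 was highest at 68.8 ± 5.95 TPM, followed by Lyve1 (33.4 ± 11.0 TPM) and Pdpn (21.9 ± 3.32 TPM). Itga9 (14.0 ± 2.47 TPM) and Flt4 (12.3 ± 1.12 TPM) came next and did not differ beyond their spread. Mmrn1 (3.83 ± 2.77 TPM), Prox1 (2.96 ± 1.72 TPM) and Reln (1.89 ± 0.456 TPM) were lowest, also within each other's spread. In ADISSP, Sox18 (34.3 ± 6.43 TPM) was followed by Pdpn (6.73 ± 0.492 TPM), with Flt4 (4.94 ± 1.11 TPM), Lyve1 (4.36 ± 0.992 TPM) and Itga9 (4.10 ± 0.889 TPM) close together. Mmrn1 (0.872 ± 0.185 TPM) and Reln (0.546 ± 0.200 TPM) came below them and Prox1 was last at 0.160 ± 0.104 TPM.

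Of 5 pan-endothelial genes 2 fell and 0 rose, with a median log2 fold change of -0.27 and a summed level of 789 to 810 CPM in Control and 570 to 675 CPM in ADISSP. Esam (-0.27), Eng (-0.17) and Egfl7 (-0.07) did not pass. The junction gene Pecam1 fell by 0.71 and the cadherin Cdh5 by 0.30 on the log2 scale. The call of Cdh5 was lost without any 1 library other than Control 3, with edgeR adjusted p from 0.0619 without Control 2 to 0.145 without ADISSP 2. Of 10 blood capillary genes 6 fell, with Plvap lower by 2.09 and Vwf by 1.14 on the log2 scale, and 1 rose. The gene that rose was Rgcc, by 0.71 (edgeR adjusted p = 0.00294). Emcn (-0.26), Flt1 (-0.07) and Car4 (-0.04) did not pass. Each member was then divided by the geometric mean of the 5 pan-endothelial genes in its own library, a ratio that does not depend on scaling between libraries. For 5 members every ADISSP ratio was below every Control ratio, which held for 9.99% of tested genes. These were Prox1, Lyve1, Itga9, Pdpn and Flt4, with log2 differences of -3.31, -2.01, -0.90, -0.81 and -0.46. Each had p = 0.1 by an exact two-sided permutation test, the smallest p that 3 against 3 allows (adjusted p = 0.160 over the 8). Relative to Pecam1 alone the Flt4 difference was -0.06 (exact permutation p = 1), and those of Pdpn and Itga9 were -0.42 and -0.50 (exact permutation p = 0.1 for either). Reln, at -0.94, overlapped between groups (exact permutation p = 0.2, adjusted 0.267). So did Mmrn1 at -0.89 and Sox18 at -0.13 (exact permutation p = 0.4 and adjusted 0.400 for either).

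**Figure D4:**
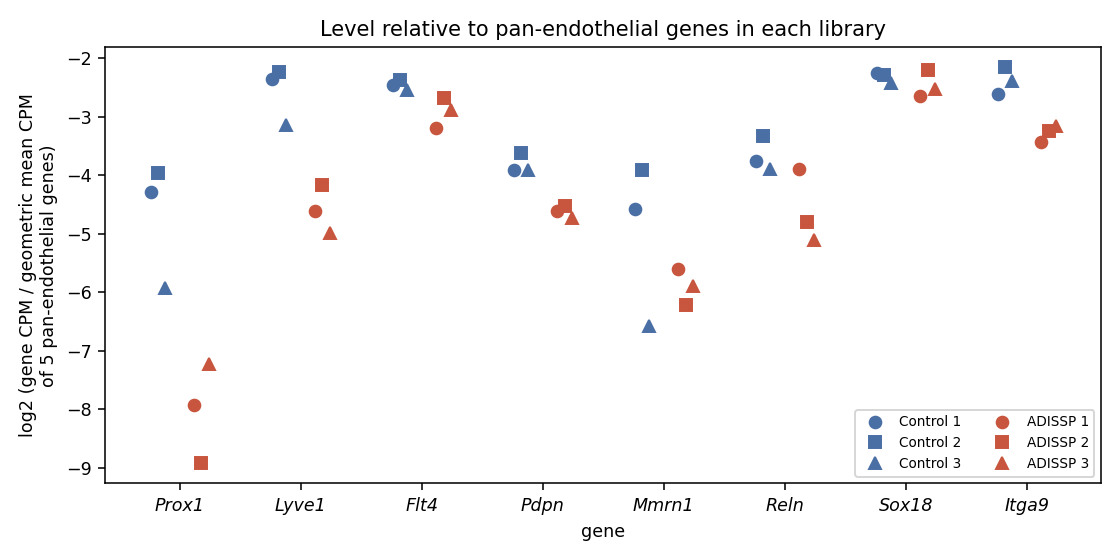
Each lymphatic gene relative to 5 pan-endothelial genes (Pecam1, Cdh5, Esam, Egfl7 and Eng) in the same library, as log2 of the CPM ratio. Blue is Control and red ADISSP, with circle, square and triangle for replicates 1, 2 and 3. The groups are apart for Prox1, Lyve1, Flt4, Pdpn and Itga9 and overlap for Mmrn1, Reln and Sox18.

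Other genes of the lymphatic pathway were more often lower than higher. Of 59 other genes of lymphatic growth, identity and function 54 were tested, of which 23 fell and 4 rose, with a median log2 fold change of -0.40. Of all tested genes 16.5% were lower and 18.5% higher, shares that also stand beside the counts by role below that use all 6 libraries. Against Control 3 alone 12 were lower, and 14 of the 23 stayed lower with any 1 library left out. Of the 4 that rose, 2 stayed higher with any 1 library left out. The genes are taken below by role. Counts given there with a library left out or against Control 3 alone come from other fits, which have other shares. With 1 library left out, 1565 to 3943 of the 17320 tested genes were lower and 2255 to 4130 higher. For Control 3 alone, the share of tested genes that were lower stands beside the members' count above.

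**Figure D5:**
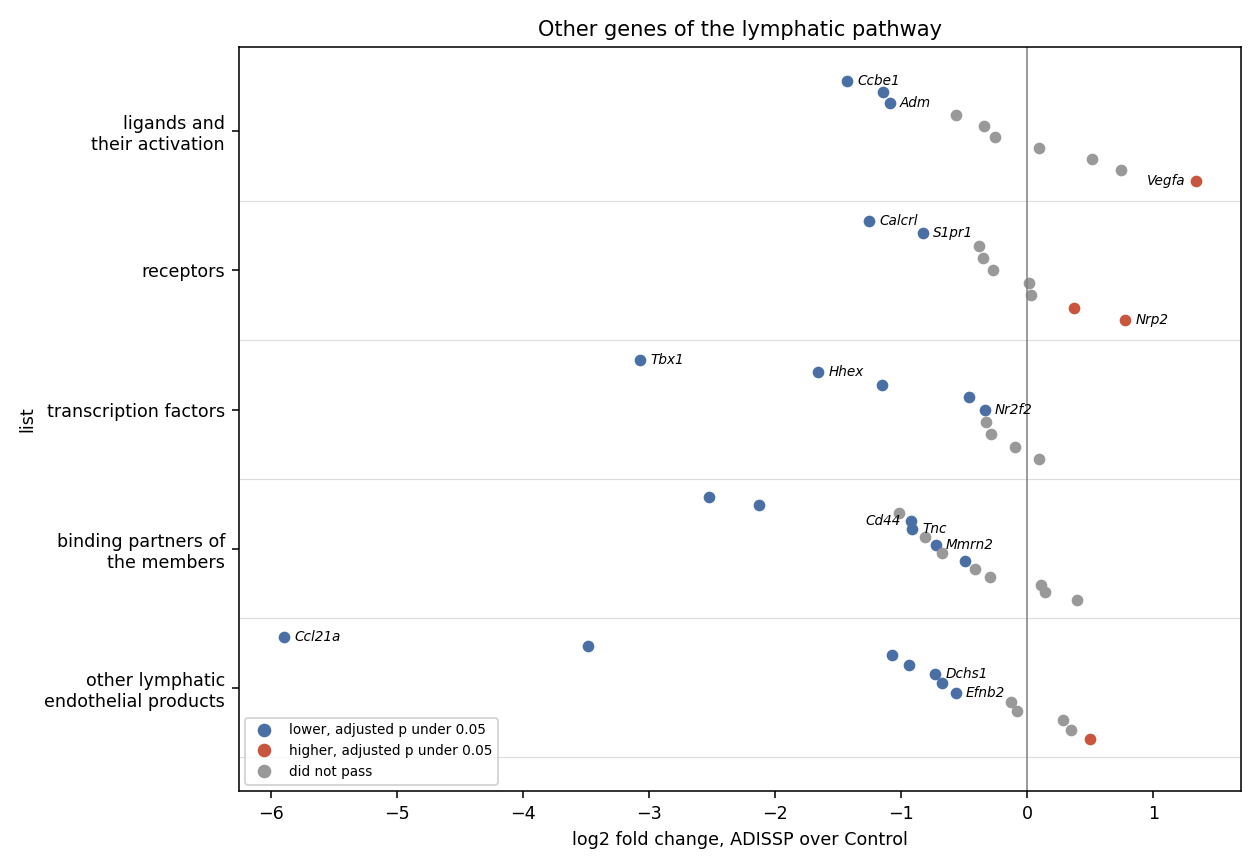
log2 fold change (ADISSP over Control) of the 54 tested pathway genes, in 5 lists by role. Blue genes are lower and red genes higher at an adjusted p under 0.05, and grey genes did not pass. The 3 genes with the smallest p of each list are named.

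Among 10 ligands and the proteins that activate them, 3 fell and 1 rose. The lymphatic growth factor genes themselves did not pass: Vegfc was at -0.56 (SE 0.29, edgeR adjusted p = 0.164) and Vegfd at -0.35 (SE 0.19, edgeR adjusted p = 0.178). Ccbe1, which is needed to cut Vegfc into its active form, went from 3.68, 6.15 and 5.93 CPM in Control to 1.58, 1.32 and 2.84 CPM in ADISSP (log2 fold change -1.43, SE 0.35, edgeR adjusted p = 0.0138). Its call was lost without Control 2, ADISSP 1 or ADISSP 2 (edgeR adjusted p = 0.0514, 0.0545 and 0.0530). Adm, which encodes adrenomedullin, fell by 1.09, while the blood vessel growth factor Vegfa rose by 1.34 on the log2 scale (edgeR adjusted p = 0.00485 and 1.7e-04). Against Control 3 alone Adm did not pass (-0.79, edgeR adjusted p = 0.0637), and 1 of the 10 was lower there. The number was also 1 without ADISSP 2 or without Control 2. Vegfa was 129, 147 and 183 CPM in Control and 405, 382 and 371 CPM in ADISSP.

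Of 9 receptors 2 fell and 2 rose, near the shares over all tested genes. Calcrl, the receptor for adrenomedullin, fell by 1.25 on the log2 scale (SE 0.19, edgeR adjusted p = 0.00125) and the sphingosine phosphate receptor S1pr1 by 0.83 (SE 0.10, edgeR adjusted p = 3.5e-04). Nrp2, a co-receptor of Flt4 that other cells make as well, rose from 126, 132 and 133 CPM in Control to 219, 235 and 218 CPM in ADISSP (log2 fold change 0.78, SE 0.09, edgeR adjusted p = 3.4e-04). Flt4 and Nrp2 thus moved in opposite directions. The other receptor that rose, Nrp1, kept its call only where Control 3 was the library left out.

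Of 9 tested transcription factors 5 fell and 0 rose. Tbx1 fell by 3.07 and Hhex by 1.66 on the log2 scale (edgeR adjusted p = 8.6e-04 and 0.00186). Nr2f2, which acts with Sox18 on Prox1, was at 38.4 ± 0.900 CPM in Control and 30.4 ± 1.26 CPM in ADISSP (SD, n = 3; log2 fold change -0.33, SE 0.09, edgeR adjusted p = 0.0244). The Nr2f2 call was lost without Control 1, Control 2, ADISSP 2 or ADISSP 3 (edgeR adjusted p = 0.0883, 0.0574, 0.0802 and 0.0677) and against Control 3 alone (edgeR adjusted p = 0.111). Of the 9 factors, 2 were lower without ADISSP 2, ADISSP 3 or Control 1, 3 without ADISSP 1 or Control 2 and 3 against Control 3 alone.

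Of 14 tested binding partners of the members 6 fell and 0 rose. Mmrn2, a relative of Mmrn1 made by endothelium, fell by 0.73 on the log2 scale (SE 0.10, edgeR adjusted p = 7.3e-04). The hyaluronan receptor Cd44 fell by 0.92 and tenascin C (Tnc), a ligand of the integrin that Itga9 encodes, by 0.91 (edgeR adjusted p = 0.00251 and 0.00626). Clec1b, the partner of podoplanin, did not pass at -1.02 (SE 0.70, edgeR adjusted p = 0.291), but did without Control 3 (-1.45, edgeR adjusted p = 0.0375). Against Control 3 alone its value was 0.81 (edgeR adjusted p = 0.586), and 3 of the 14 were lower there.

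Of 12 tested further products of lymphatic endothelium 7 fell and 1 rose. Ccl21a, a chemokine that draws dendritic cells and lymphocytes into lymphatics and is also made by lymph node stroma, stood at 42.7, 72.0 and 13.2 CPM in Control and at 0.475, 1.21 and 0.568 CPM in ADISSP. Its log2 fold change was -5.89 (SE 0.90, edgeR adjusted p = 0.00770), and near-identical gene copies make its counting uncertain. Control 3 was the lowest control by far, as for Prox1 and Mmrn1. The atypical cadherin Dchs1, which acts in lymphatic valves, fell by 0.73 and the ephrin Efnb2 by 0.56 on the log2 scale (edgeR adjusted p = 0.00362 and 0.00637). Efnb2 was at 38.3, 38.1 and 32.3 CPM in Control 1, 2 and 3, and its call was lost against Control 3 alone (-0.41, edgeR adjusted p = 0.105). The list had 2 genes lower against Control 3 alone, and 3 higher without it.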

How the data were processed

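RNA of 6 libraries of inguinal white fat was sequenced after ribosomal RNA depletion, per the labels' protocols. STAR, featureCounts and mm39 (GRCm39) are named in the submitters' processing notes, and their versions, the annotation release and the strand setting are not given in any source used here. The authors deposited whole-number read counts per gene, without normalization, and TPM values of 23524 genes; their FPKM table was not used. All columns were matched to libraries by their headers. Library pairs of a group differed beyond sampling noise. The labels call the libraries biological triplicates. Molecular identifiers are not mentioned, so floors cover counting error only.

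For the main test, run in edgeR 4.0.16 (R 4.3.3), a filter on low counts (filterByExpr) left 17320 genes, TMM factors scaled the libraries, and the robust quasi-likelihood test compared 3 ADISSP with 3 Control libraries, called at an adjusted p under 0.05. CPM use each total times its TMM factor. SE is the log2 fold change divided by the square root of F. The test was tried on simulated counts. Alternatives used DESeq2 1.42.0, limma 3.58.1 on log2(TPM + 1), library totals, no filter, a replicate block, each library left out and Control 3 alone. Equal replicate numbers were not treated as pairs.

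The members, lists and alternatives were chosen with earlier results of these data known. Named are all members, the 3 pathway genes and 2 cell markers with the smallest p per list, and the 5 genes most like Prox1, Lyve1 and Mmrn1. Vegfc, Vegfd, Clec1b, Nrp1, Cr2, Esam, Eng, Egfl7, Cldn11, Foxc2, Dab1 and genes at 0 were named besides, with values in view. So were Mrc1 and Pdgfra, used in ratios, and Timd4, Col1a1, Rgcc, Emcn, Flt1 and Car4.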

Additional observations from a re-analysis of the deposited data

How the results depend on the processing

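The number of lymphatic genes lower in ADISSP was 6, with 6 to 8 when 1 library was left out, 7 with DESeq2, 7 on log2(TPM + 1), 7 with no filter on low counts, 8 on library totals and 4 against Control 3 alone. None was called higher in any of these. The log2 fold change stayed below 0 in every alternative for 7 genes, and only Mmrn1 reversed, to 0.33 against Control 3 alone; its cause was not tested. Prox1, Lyve1, Pdpn and Itga9 passed in all 12 alternatives, and Prox1 ranged from -4.14 to -1.66, with -1.66 on log2(TPM + 1), where the pseudocount shrinks low genes. Mmrn1 passed with DESeq2 (-1.52, adjusted p = 0.0227) and on library totals (-1.90, edgeR adjusted p = 0.0429). Scaling matters for small changes: the median of all tested genes moved from -0.01 to -0.36 on library totals and to -0.51 on log2(TPM + 1). Lower and higher calls numbered 2861 and 3197 with TMM, 6600 and 1756 on library totals and 9520 and 1284 on log2(TPM + 1). Sox18 was -0.78 and -1.0 on these scales and passed, and lay -0.41 and -0.49 from that median. Relative to Pecam1 alone Sox18 reversed to 0.26. Pathway genes lower numbered 37 on library totals, 41 on log2(TPM + 1) and 12 against Control 3 alone, and 16 to 25 with 1 library left out. Pathway genes higher numbered 2 on library totals, 7 with no filter, 1 on log2(TPM + 1) and 2 to 9 with 1 library left out. All genes lower numbered 1565 to 3943 with 1 library left out, and 1334 lower and 1853 higher against Control 3 alone. With the replicate block 6 members were lower, as without it, and 23 pathway genes were lower and 6 higher. Deviations of same-numbered libraries correlated at 0.0481, 0.0894 and 0.0553, each under 0.1, though each library correlated best with its own number. At 18 Prox1 counts over 3 ADISSP libraries, its level there is imprecise.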

Other observations

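Some pathway genes had too few counts to be tested, and 4 are given here. The tight-junction gene Cldn11, which acts in lymphatic valves, had 7, 16 and 1 counts in Control 1, 2 and 3 and 0, 0 and 1 in ADISSP. The valve transcription factor Foxc2 had 7, 3 and 6 counts in Control and 3, 1 and 1 in ADISSP. Dab1, the adaptor inside cells that respond to reelin, had 8, 13 and 1 counts in Control and 0, 2 and 0 in ADISSP. The peptide gene Nts had 3, 3 and 0 counts in Control and 0 in each ADISSP library. Cldn11, Dab1 and Nts were lowest among the controls in Control 3, as Prox1 and Mmrn1 were.

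Counts of Mmrn1 per count of Prox1 were 0.822, 1.03 and 0.636 in Control 1, 2 and 3, so that the pair kept a similar ratio across the controls although both were low in Control 3. In ADISSP 1, 2 and 3 the ratio was 5, 6.50 and 2.55, above each control, on 5, 2 and 11 Prox1 counts.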
